A study of Mus musculus with 40 samples.

Results

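NDI1-expressing and WT bone marrow-derived macrophages (BMDMs) were compared after piericidin A without LPS, that is, in resting macrophages whose complex I was blocked. The libraries were taken by genotype and treatment from their labels, 5 from NDI1 mice and 5 from WT mice, 10 of the 40 in the series. The labels give C57/Bl6 for both genotypes, while the study's methods call the NDI1 knock-in line mixed C57Bl/6J/N. Both carried Vav-iCre, a recombinase active in hematopoietic lineages, and in NDI1 mice it released the NDI1 gene from a stop cassette at Rosa26. Males and females of 8 to 14 weeks were used, and all cells were grown with M-CSF in medium with methyl-pyruvate and uridine. Piericidin A was given at 500 nM, and the labels state no separate exposure time for the libraries without LPS (30 min before a 4-h LPS step in the others). The untreated libraries and the libraries given piericidin A with LPS (100 ng/mL) of the same 10 mice serve as reference. The yeast NDI1 gene is not analysed here, so the genotype labels were not checked against the transgene.

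Piericidin A stops respiration at the ubiquinone site of complex I, the large proton-pumping enzyme where electrons from NADH enter the respiratory chain, so that NADH accumulates and complexes III and IV receive fewer electrons. Baker's yeast has no complex I. NADH in its mitochondrial matrix is oxidized by NDI1, a small dehydrogenase that moves no protons and stays active in the presence of the drug. Blocked respiration is known to engage the integrated stress response, in which kinases phosphorylate eIF2α and the transcription factor ATF4 induces genes of amino acid supply.

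The 10 libraries held between 9161690 and 11682125 counts on genes. Of 43430 genes in the table, 11853 passed the filter on low counts and were tested. All 12 macrophage markers fixed for this comparison, among them Adgre1, Csf1r and Mertk, were tested and 0 were called different. None of the 27 tested markers of other cell types was called either. Neutrophil and precursor genes (9 of 10 tested, 0 of them at 0 in all 10 libraries) had a summed level of 37.5 to 131 CPM (counts scaled to library size) in 4 WT libraries and 1818 CPM in that of WT mouse 4, and of 22.8 to 152 CPM in 4 NDI1 libraries and 702 CPM in that of NDI1 mouse 4. Of 6 other marker sets, 4 were also highest in these libraries within their genotype, and the erythroid and osteoclast sets were not. Fibroblast and stromal genes summed to 64 CPM in WT mouse 4 against 1.12 to 17.5 CPM in the other WT libraries, and dendritic cell genes to 20.2 against 2.04 to 4.67 CPM, mast cell and basophil genes to 12.1 against 0.421 to 0.747 CPM and T, NK and B cell genes to 9.45 against 0.912 to 1.81 CPM. In NDI1 mouse 4 the same sets summed to 11.7, 15.4, 4.98 and 8.69 CPM, against at most 6.13, 3.9, 0.766 and 2.02 CPM in the other NDI1 libraries. The libraries of these mice also stood apart in a principal component analysis, at 70.7 on the first component (35.2% of the variance) and at 50.4 on the second (22.2%). Results are therefore also given without mouse 4 of each genotype, a choice made after seeing the data. The part of these markers in the results was not tested. In such bulk libraries, fewer cells of a type and less RNA per cell cannot be told apart.

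With complex I blocked, genotype set apart 924 of 11853 tested genes (7.8%, edgeR's quasi-likelihood test, Benjamini-Hochberg adjusted p under 0.05). Of these, 413 were higher in NDI1 (3.48% of those tested) and 511 lower (4.31%). The lower genes were further apart. The median log2 fold change was −0.84 in the lower and 0.61 in the higher genes, and 206 lower against 60 higher genes were at least 1 log2 unit apart. Beyond 2 there were 63 lower and 3 higher genes. In 389 tested genes (3.28%) the 5 NDI1 values were all below the 5 WT values, and in 328 (2.77%) all above, and 514 of the 924 were separated in this way. Without treatment, the same mice gave 0 called genes (0%) with edgeR, with DESeq2 and with limma, and 39 genes at an unadjusted p under 0.05 with edgeR. Chance alone would pass more genes at that threshold, so the test was conservative here and 0 calls does not show equal levels. Genotype held 22.8% of the variance over the tested genes among the 10 piericidin A libraries (one-sided exact permutation test over the assignments of mice, p = 0.00794, the smallest possible) and 4.81% among the 10 untreated libraries (exact permutation test, p = 1). No assignment of the mice gave a smaller share in the untreated libraries, and the cause was not tested. Without mouse 4 of each genotype 458 genes were called, 134 higher and 324 lower, and 430 of them were among the 924. Leaving out only the library of WT mouse 4 or WT mouse 5 gave 595 and 562 genes.

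**Figure D1:**
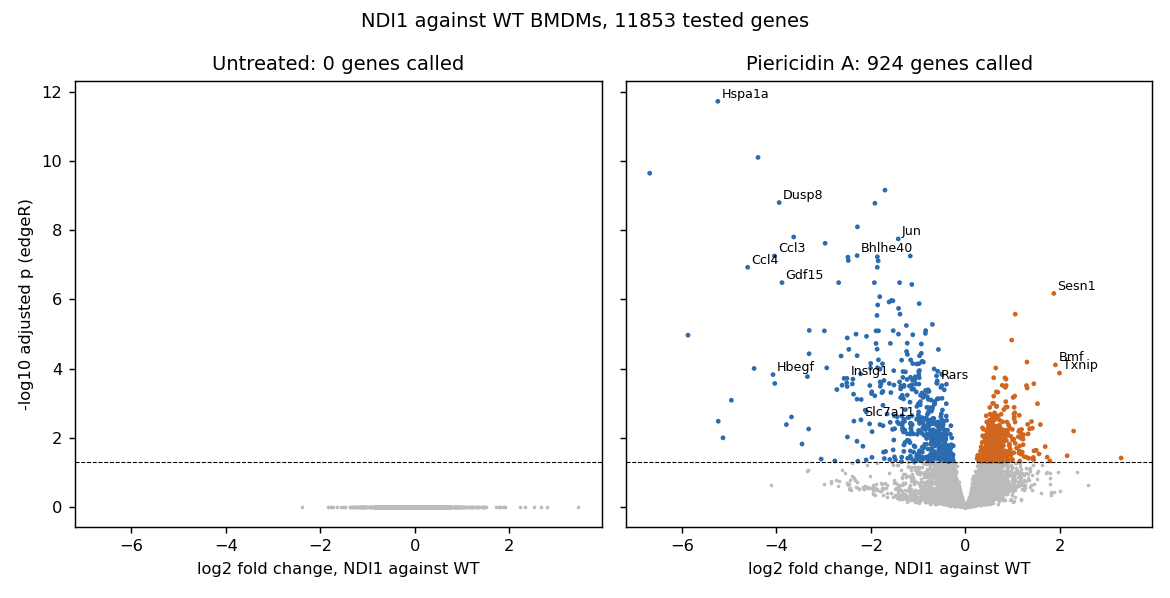
Log2 fold change between NDI1 and WT (x axis) against −log10 of the edgeR adjusted p (y axis) for each tested gene, untreated (left) and with piericidin A (right). The dashed line marks an adjusted p of 0.05, blue points are the 511 genes lower and orange points the 413 genes higher in NDI1, grey points were not called, and no gene passes the line without treatment.

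The untreated and treated libraries were set side by side to see which genotype had moved. Over all 11853 tested genes the median absolute log2 fold change with piericidin A was 0.246 in WT and 0.0784 in NDI1, and over the 924 genes it was 0.754 and 0.0858. The values over the 924 share the piericidin A libraries with the comparison that chose the genes, which favours a difference between the genotypes. For piericidin A within WT 1759 genes were called (14.8%), and 0 within NDI1 (0%, 58 at an unadjusted p under 0.05, edgeR). With the mouse as a block, added after seeing the data, WT had 4049 calls (34.2%) and NDI1 had 0 (0%, 284 at an unadjusted p under 0.05), and without mouse 4 of each genotype 909 and 0 (66 at an unadjusted p under 0.05). These unadjusted counts within NDI1 are also fewer than chance gives at that threshold. The 0 calls therefore do not show that piericidin A left NDI1 cells unchanged. Within single mice, the 511 genes lower in NDI1 had a median log2 difference from the mouse's own untreated library of 0.891, 0.571, 0.655, 1.09 and 1.1 in WT mice 1 to 5. The corresponding values in NDI1 mice 1 to 5 were 0.0883, 0.0181, 0.0958, 0.00661 and 0.0844. Mice 4 and 5 had the largest shifts among WT. The genes were chosen on these treated libraries, so the direction of the gap between genotypes is in part given by the choice. Over all tested genes the median shift lay between −0.0159 and 0.0105 in the 10 mice, and the SD of the shifts across genes was between 0.418 and 0.746 in WT mice and between 0.309 and 0.414 in NDI1 mice. For the 413 genes higher in NDI1, the shift was between −0.905 and −0.422 in WT and between −0.241 and 0.0433 in NDI1.

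**Figure D2:**
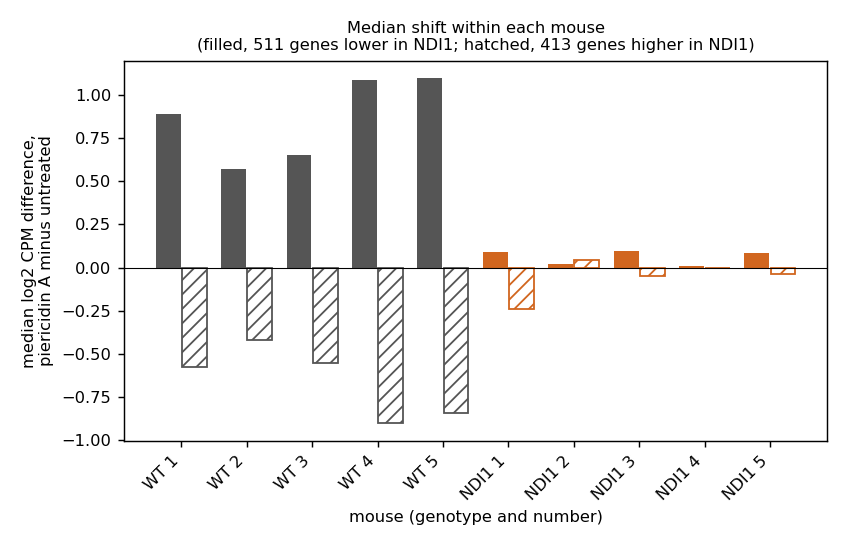
Median log2 CPM difference between the piericidin A and the untreated library of each mouse (y axis) for the 5 WT (grey) and 5 NDI1 (orange) mice (x axis). Filled bars cover the 511 genes lower in NDI1 and hatched bars the 413 genes higher in NDI1, and in WT the filled bars lie between 0.571 and 1.1 and the hatched bars between −0.905 and −0.422.

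Whether the effect of piericidin A itself differed between the genotypes was tested directly with the untreated libraries in the contrast. It differed in 150 genes (1.27%), all of them among the 924, with 130 less induced or more reduced in NDI1 and 20 the reverse. When the mouse was kept as a block, since the 4 libraries of a mouse share its number, 1062 genes passed (610 and 452), and 700 of these were among the 924. The 150 were all among the 1062.

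Of 17 tested ATF4-CHOP genes, the core of the integrated stress response, 9 were lower in NDI1 (52.9%, beside 4.31% of all tested genes) and 0 higher, and the median log2 fold change was −1.02, against 0.00 over all genes tested. Gdf15 (chromosome 8, 70629393 to 70632456, mm10), a stress-induced cytokine, had 787, 271, 249, 1280 and 1230 CPM in WT mice 1 to 5 and 85.8, 33.3, 39.4, 38.9 and 61.4 CPM in NDI1 mice 1 to 5. The WT values spread more than 5-fold, and untreated libraries of both genotypes lay between 24.6 and 56.8 CPM. The log2 fold change was −3.88 ± 0.47 (SE, adjusted p = 3.25e-07). Chac1, which degrades glutathione, was measured at 9.47, 6.13, 9.69, 13.1 and 36.9 CPM in WT and at 1.69, 0.228, 0.265, 0.338 and 4.87 CPM in NDI1 with no overlap (log2 fold change −3.32 ± 0.79, adjusted p = 0.00566). For Atf3, a transcription factor downstream of ATF4, the levels were 816, 450, 449, 1220 and 1420 CPM in WT and 330, 189, 294, 418 and 452 CPM in NDI1, and the highest NDI1 mouse reached the 2 lowest WT mice (−1.37 ± 0.27, adjusted p = 0.000695). Atf4 itself was at 350, 251, 292, 409 and 604 CPM in WT and 225, 154, 146, 121 and 295 CPM in NDI1, and NDI1 mouse 5 lay above WT mice 2 and 3. Its difference of −1.02 ± 0.25 (adjusted p = 0.00807) was lost without mouse 4 of each genotype (−0.87, adjusted p = 0.0917). The other called members were Ppp1r15a, a subunit of the eIF2α phosphatase (−1.13), the bZIP factors Cebpb (−1.13) and Jdp2 (−1.37), and the mTORC1 inhibitors Sesn2 (−0.80) and Ddit4 (−1.53), of which Ddit4 lost its call under 5 of 18 alternatives (adjusted p up to 0.0946). Cebpb shares exons with a neighbouring gene that holds 0.261 times its counts. Ddit3, which encodes CHOP, had 73.6 to 114 CPM in WT and 24.6 to 76.2 CPM in NDI1 and missed the threshold (−0.80 ± 0.29, adjusted p = 0.0792, but 0.0285 without mouse 4 of each genotype and 0.00669 by voom with the mouse as a block), as did Trib3 (−1.15 ± 0.42, adjusted p = 0.0849). A neighbour with 0.733 times its counts shares exons with Ddit3.

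Upstream of ATF4, 3 of 10 tested eIF2α kinase and relay genes were called (30%, beside 7.8% of all). Impact, an inhibitor of the kinase GCN2, was lower in NDI1, at 135, 76.5, 80.2, 144 and 121 CPM in WT and 37.5, 27.3, 46.3, 44.3 and 32.7 CPM in NDI1 (−1.56 ± 0.20, adjusted p = 1.07e-06). The groups were separate, and 4 of the 5 NDI1 values lay within those of untreated cells (32.2 to 49.1 CPM) and the other below. The kinase genes Eif2ak3 (PERK, 0.72 ± 0.17, adjusted p = 0.00468) and Eif2ak2 (PKR, 0.74 ± 0.18, adjusted p = 0.00794) were higher in NDI1, and neither was called without mouse 4 of each genotype (adjusted p 0.0675 and 0.121). Genes of the relay from mitochondria, Oma1 (−0.06 ± 0.14), Dele1 (−0.05 ± 0.13) and the kinase Eif2ak1 (HRI, 0.23 ± 0.09), did not pass the test.

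Genes of amino acid supply, many of which ATF4 regulates, were lower in NDI1 where they were called. Of 12 tested amino acid transporters, 5 were lower (41.7%, beside 4.31% of all) and 0 higher (median −0.81). Slc7a11, the cystine-glutamate exchanger, had 104, 88.2, 117, 154 and 226 CPM in WT and 29.4, 18.7, 18.3, 39.7 and 42.7 CPM in NDI1 with no overlap (−2.21 ± 0.49, adjusted p = 0.00307). The leucine transporter Slc7a5 (−1.50), its partner Slc3a2 (−0.89), the arginine carrier Slc7a1 (−1.35) and the glutamine carrier Slc38a2 (−0.82) followed. In serine, folate, asparagine and proline synthesis 3 of 13 were lower (23.1%). Mthfd2, a mitochondrial folate enzyme, was at 64.9, 41.1, 50.1, 71.7 and 91.4 CPM in WT and 24.5, 16.1, 17.9, 24.7 and 38 CPM in NDI1 (−1.39 ± 0.25, adjusted p = 2.45e-04). Got1, an aspartate aminotransferase (−0.82), and Shmt2, a serine hydroxymethyltransferase (−0.33), were the others, and Shmt2 lost its call under 13 of 19 alternatives. Asns, asparagine synthetase, overlapped between the groups (−0.86 ± 0.33, adjusted p = 0.101, but 0.00566 by voom with the mouse as a block). Among 20 cytosolic aminoacyl-tRNA synthetases, 5 were lower (25%; Rars −0.61, Yars −0.76, Eprs −0.47, Cars −0.56 and Aars −0.46) and 19 had a negative log2 fold change, with a median of −0.19. Yars shares exons with a gene of 4.90 times its counts. Aars lost its call under 11 of 19 alternatives (adjusted p = 0.0676 without mouse 4 of each genotype) and Cars under 5 of 19. Without the piericidin A library of WT mouse 5, NDI1 mouse 3 or NDI1 mouse 4, and with only the libraries compared, 3 genes of the list were called. The mitochondrial synthetases had 1 call in 17 (5.88%), Wars2 (−0.57), which lost its call under 5 of 19 alternatives (adjusted p = 0.0538 without mouse 4 of each genotype), and a median of 0.20.

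The C/EBP-ATF response element, to which ATF4 binds with a C/EBP partner, was searched as TGATGNAAN on both strands of the 250 bases before each start in RefSeq (GRCm38.p6). Of the 22 called members of the ATF4, serine, transporter and cytosolic synthetase lists, 19 matched a promoter and 6 of these (31.6%) held the motif (Atf3, Chac1, Jdp2, Slc7a11, Got1 and Aars), against 3.89% of all genes with a promoter window and 2.43% of those tested. Over the whole comparison the share was 3.52% in 398 lower genes and 2.40% in 334 higher genes. No test was made of these shares. The lists were written from ATF4 targets and genes of amino acid supply, and their uncalled members were not counted. The 31.6% therefore cannot be told apart from the choice of the lists. The sequences below show 4 of the 6, 5′ to 3′ on the strand of the gene, with the match in capitals.
Chac1, chr2:119350992-119351241, plus strand: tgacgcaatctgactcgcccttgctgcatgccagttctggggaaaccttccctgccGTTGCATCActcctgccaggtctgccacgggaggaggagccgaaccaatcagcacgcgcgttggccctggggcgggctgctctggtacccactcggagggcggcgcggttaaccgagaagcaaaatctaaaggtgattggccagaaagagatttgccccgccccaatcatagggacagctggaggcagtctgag
Atf3, chr1:191183334-191183583, minus strand: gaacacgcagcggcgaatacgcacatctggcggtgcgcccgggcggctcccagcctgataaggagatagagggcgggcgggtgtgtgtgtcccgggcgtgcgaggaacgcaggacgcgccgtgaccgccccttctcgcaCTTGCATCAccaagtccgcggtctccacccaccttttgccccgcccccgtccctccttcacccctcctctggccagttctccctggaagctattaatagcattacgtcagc
Slc7a11, chr3:50443614-50443863, minus strand: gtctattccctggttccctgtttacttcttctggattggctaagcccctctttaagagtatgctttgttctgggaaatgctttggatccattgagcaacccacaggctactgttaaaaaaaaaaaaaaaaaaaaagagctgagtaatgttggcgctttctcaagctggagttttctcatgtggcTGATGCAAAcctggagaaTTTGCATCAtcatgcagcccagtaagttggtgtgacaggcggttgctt
Got1, chr19:43524606-43524855, minus strand: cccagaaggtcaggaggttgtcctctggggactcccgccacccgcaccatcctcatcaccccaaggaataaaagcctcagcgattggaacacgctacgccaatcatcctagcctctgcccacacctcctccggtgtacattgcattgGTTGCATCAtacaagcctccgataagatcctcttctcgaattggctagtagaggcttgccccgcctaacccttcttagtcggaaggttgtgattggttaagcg
The Slc7a11 window holds 2 matches, 1 on each strand. A sterol regulatory element (TCACNCCAC) and the ER stress response element were found in 0 of these 19 promoters and in 1.22% and 0.13% of all genes. The heat shock element was added after seeing the data and searched as a fixed pattern only. It was in 0 of the 3 called heat shock genes with a promoter window and in 0.514% of all genes. Variant forms of the element were not searched. The search therefore cannot show that these 3 promoters lack a heat shock element.

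Among 14 tested cytosolic heat shock genes 4 were lower in NDI1 (28.6%, beside 4.31% of all tested genes) and 0 higher, with a median of −0.19. Hspa1a (chromosome 17, 34969190 to 34972156), an inducible HSP70 chaperone, was at 111, 30.6, 109, 135 and 55.1 CPM in WT mice and 2.04, 3.42, 0.927, 2.03 and 3.20 CPM in NDI1 mice. Untreated libraries of both genotypes lay between 1.35 and 4.01 CPM, so the NDI1 libraries with the inhibitor were within that range or, for mouse 3, below it, and each WT library was above it. The log2 fold change was −5.24 ± 0.37 (adjusted p = 1.80e-12). Its neighbour Hspa1b (34956436 to 34959238), nearly the same in sequence so that reads of the pair may be shared or lost, had 31.2 to 115 CPM in WT and 1.59 to 6.41 CPM in NDI1 (−4.39 ± 0.36). Hspb1, a small heat shock protein, rested on 4 to 33 counts per WT library and 0 to 3 per NDI1 library (−3.68 ± 0.80, adjusted p = 0.00253). Hsp90aa1 was the last of the 4 (−0.48 ± 0.14, adjusted p = 0.0301). Without mouse 4 of each genotype it was not called (adjusted p = 0.0994), Hspb1 did not pass the filter on low counts, and 2 genes of the list were called, as with only the libraries compared. The constitutive chaperone Hspa8 (−0.31), Hsph1 (−0.12), Dnaja1 (0.09) and Bag3 (0.05) did not pass the test.

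Inflammatory cytokine and NF-κB feedback genes were lower in NDI1 in 9 of 18 tested (50%, beside 4.31% of all), higher in 0, with a median of −1.37. Ccl3 (chromosome 11, 83647844 to 83649355), a chemokine, stood at 164, 77.2, 55.9, 565 and 434 CPM in WT and 19.7, 8.52, 12.6, 15.2 and 22.5 CPM in NDI1 (−4.04 ± 0.44, adjusted p = 5.48e-08). Its neighbour Ccl4 (83662584 to 83664683) ran in parallel, at 110, 70.2, 43.2, 640 and 477 CPM in WT and 14, 5.48, 5.96, 11.6 and 17.8 CPM in NDI1 (−4.61 ± 0.53). WT mice 4 and 5 were highest in both. The neutrophil chemoattractant Cxcl2 had 50.1, 32.4, 20.2, 215 and 323 CPM in WT and 11.8, 7.91, 3.18, 13.7 and 26.5 CPM in NDI1, where NDI1 mouse 5 passed WT mouse 3 (−3.34 ± 0.58, adjusted p = 1.72e-04). Il1rn, the IL-1 receptor antagonist, lay between 106 and 196 CPM in WT and 23.8 and 60.0 CPM in NDI1 (−1.89 ± 0.27). Ptgs2, the inducible cyclooxygenase, lay between 6.13 and 17.2 CPM in WT, against 1.06 to 5.15 CPM in NDI1 (−2.57 ± 0.45). Cxcl1 (−1.74), the NF-κB inhibitors Tnfaip3 (−1.15) and Nfkbiz (−1.02), and Tnf were the other calls. Without mouse 4 of each genotype 6 genes of the list were called, and Cxcl1 (adjusted p = 0.0572) and Nfkbiz (adjusted p = 0.0945) were not among them. By voom with the mouse as a block, Cxcl1 (adjusted p = 0.101), Nfkbiz (adjusted p = 0.0501) and Tnf (adjusted p = 0.0506) were not called. With only the libraries compared 6 genes of the list were called by edgeR, and Tnfaip3 (adjusted p = 0.0634) was not among them. Tnf was at 30.5, 47.8, 17.4, 177 and 204 CPM in WT and 30.5, 12.8, 7.75, 45 and 47.4 CPM in NDI1, so the groups overlapped and WT mice 4 and 5 were far above the others (−1.73 ± 0.50, adjusted p = 0.0265, and 0.121 without mouse 4 of each genotype). Il1b, low in cells without LPS, had 5.88 to 18.1 CPM in WT and 2.12 to 8.91 CPM in NDI1 (−0.80 ± 0.38, adjusted p = 0.206). Il10 lay between 0.263 and 1.01 CPM in all 10 libraries.

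Of 10 tested inflammasome genes, 1 was called (10%, beside 7.8% of all tested genes). It was P2rx7, the ATP-gated channel upstream of NLRP3, at 51.4, 70.3, 52.8, 43.0 and 47.0 CPM in WT and 64.4, 103, 85.6, 100 and 73.3 CPM in NDI1 (0.69 ± 0.13, adjusted p = 4.85e-04). NDI1 mouse 1 lay below WT mouse 2, and the others were above all WT values. Nlrp3 was at 72.2, 150, 88.7, 179 and 256 CPM in WT and 88.7, 77.8, 36.0, 98.1 and 158 CPM in NDI1, with overlapping groups (−0.70 ± 0.34, adjusted p = 0.209). Casp1 (0.18 ± 0.19), Pycard (0.22 ± 0.20) and Gsdmd (−0.24 ± 0.14) did not pass the test. Among 26 interferon-stimulated genes 1 was called (3.85%), Oasl1 (−1.30), which lost its call under 6 of 19 alternatives, and the median was 0.03.

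**Figure D3:**
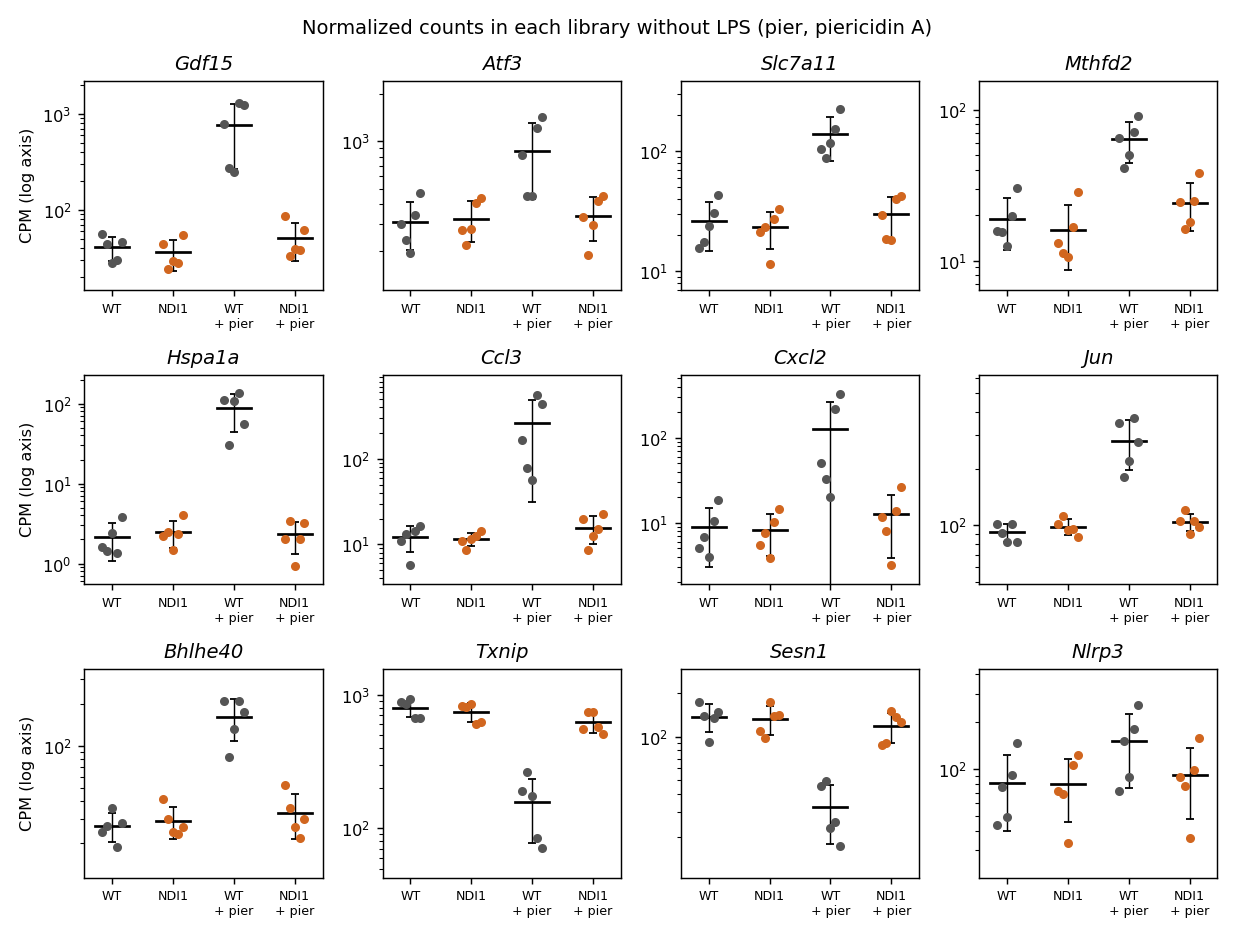
CPM on a log axis (y) in each library without LPS for 12 genes, untreated and with piericidin A (pier), WT in grey and NDI1 in orange. Points are mice, lines are means and bars are SD (n = 5, cut at the axis for Cxcl2), and for Gdf15, Hspa1a, Ccl3, Jun, Bhlhe40, Txnip and Sesn1 the treated WT points do not overlap the treated NDI1 points, which the naming rule required of Gdf15, Hspa1a, Ccl3, Txnip and Sesn1.

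Immediate early genes, transcription factors and phosphatases that respond within minutes to kinase signalling, were lower in NDI1 in 10 of 18 tested (55.6%, beside 4.31% of all) and higher in 0 (median −0.96). Jun was at 347, 180, 218, 369 and 278 CPM in WT and 105, 120, 90.5, 106 and 98.0 CPM in NDI1, and untreated cells had 81.6 to 112 CPM. The groups were far apart (−1.42 ± 0.15, adjusted p = 1.75e-08). Fosb (−2.47), Myc (−1.80), Egr2 (−1.50), Junb (−0.97), Jund (−0.51) and Ier3 (−0.79) shared its direction. Ier3 lost its call under 14 of 19 alternatives and Jund under 8, both without mouse 4 of each genotype among them (adjusted p 0.0921 and 0.185), where 8 genes of the list were called. Ier3 was not called by voom with the mouse as a block either (adjusted p = 0.0541). The phosphatases that switch off MAP kinases were Dusp1 (−1.81), Dusp4 (−1.79) and Dusp5 (−1.89), and outside the list Dusp8, specific for stress-activated kinases, at 8.01 to 36.5 CPM in WT and 0.861 to 1.90 CPM in NDI1 (−3.94 ± 0.37, adjusted p = 1.55e-09). Dusp1 shares exons with a neighbour that holds 0.354 times its counts.

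Of the 12 falls named by rule, which takes only genes without overlap whose mean log2 CPM reaches 1, Dusp8 and 6 more were in none of the lists. Hbegf, an EGF receptor ligand, had 26 to 127 counts per WT library and 2 to 7 per NDI1 library (−4.07 ± 0.70, adjusted p = 1.50e-04). Osm, the cytokine oncostatin M, was at 46.7, 20.0, 34.4, 62.7 and 37.0 CPM in WT and 5.70, 5.63, 5.43, 4.56 and 4.25 CPM in NDI1 (−2.97 ± 0.31). Plau, the urokinase protease, lay between 155 and 545 CPM in WT and 18.4 and 57.8 CPM in NDI1 (−2.98 ± 0.43). Ccrl2, a chemerin-binding receptor, ranged from 175 to 728 CPM in WT and 10.8 to 46.4 CPM in NDI1 (−3.63 ± 0.37), Gem, a small GTPase, from 7.95 to 31.5 and 0.596 to 2.74 CPM (−3.31 ± 0.47), and Hcar2, the niacin and hydroxybutyrate receptor, from 2.81 to 11.1 and 0.265 to 1.95 CPM (−2.72 ± 0.51).

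Of 21 glycolysis genes 3 were lower in NDI1 (14.3%, beside 4.31% of all tested genes) and 0 higher, with a median of −0.10. Hk2, an inducible hexokinase, was at 227, 74.9, 98.4, 238 and 168 CPM in WT and 36.6, 46.5, 63.8, 101 and 49.8 CPM in NDI1, and NDI1 mouse 4 passed the 2 lowest WT mice (−1.44 ± 0.32, adjusted p = 0.00354). The monocarboxylate carrier Slc16a1 (−1.34) and Pfkfb3, which makes the activator of phosphofructokinase (−1.003 ± 0.31, adjusted p = 0.0399), were the others, and Pfkfb3 lost its call under 9 of 19 alternatives. HIF-1 targets outside glycolysis had 4 lower of 16 (25%) and a median of −0.17. Vegfa was at 215, 132, 197, 202 and 161 CPM in WT and 41.9, 77.2, 41.6, 41.1 and 37.3 CPM in NDI1 (−1.93 ± 0.23, adjusted p = 3.25e-07). Bhlhe40, a transcriptional repressor, was at 209, 83.3, 132, 211 and 175 CPM in WT and 52.1, 35.8, 26.0, 21.9 and 29.7 CPM in NDI1 (−2.29 ± 0.25). Both were separate between the groups. Ndrg1 (−1.32) and Adm (5 to 26 counts per WT library, 0 to 2 per NDI1 library) completed the calls, while Bnip3 (−0.55) and Egln3 (−0.58), which HIF-1 also induces, did not pass the test.

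Insig1, which retains the SREBP complex in the ER, was lower in NDI1, at 210, 94.2, 82.2, 294 and 656 CPM in WT and 52.8, 43.9, 31.4, 44.0 and 63.0 CPM in NDI1 with no overlap (−2.51 ± 0.44, adjusted p = 1.93e-04). It was the 1 call among 24 tested sterol genes (4.17%, beside 7.8% of all tested genes). The median of the list was 0.36, and the early pathway enzyme Hmgcs1 (0.63 ± 0.29) did not pass the test. Lysosomal genes and their MiT/TFE regulators were lower in 9 of 31 (29%, beside 4.31% of all) and higher in 0 (median −0.28). Rragd, a GTPase that recruits mTORC1 to lysosomes, was at 110, 71.4, 92.1, 97.9 and 84.7 CPM in WT and 55.3, 36.8, 56.7, 28.6 and 27.8 CPM in NDI1 (−1.15 ± 0.27, adjusted p = 0.00565). The related GTPase gene Rragc (−0.53), the folliculin partner Fnip2 (−0.99), the calcium channel Mcoln1 (−0.40) and the proton pump subunit Atp6v1a (−0.57) were called with it. With only the libraries compared 5 genes of the list were called. Without mouse 4 of each genotype 4 were called, and Rragc (adjusted p = 0.0529) and Mcoln1 (adjusted p = 0.11) were not among them. The ferritin genes Fth1 (−0.57) and Ftl1 (−0.41) and the iron importer Slc11a2 (−0.61) were lower among 12 iron genes (25%), with 1 called without mouse 4. None of these 3 was called with only the libraries compared, and Ftl1 lost its call under 9 of 19 alternatives. Of 9 genes of arginine and nitric oxide metabolism, 2 were lower (22.2%), the nitric oxide synthase Nos2 and Odc1. Nos2 (−1.71, adjusted p = 0.0407) lost its call under 10 of 16 alternatives (adjusted p = 0.0906 without mouse 4 of each genotype and 0.264 by voom with the mouse as a block). Odc1, the first enzyme of polyamine synthesis, was at 127 to 338 CPM in WT and 41.5 to 60.1 CPM in NDI1 (−1.86 ± 0.21, adjusted p = 1.17e-07).

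Genes of the respiratory chain itself were among those with no call. The 36 nuclear complex I subunits had log2 fold changes between −0.28 and 0.14 (median −0.14), the 39 nuclear subunits of complexes II to V between −0.38 and 0.09 (median −0.21) and the 14 mitochondrial chaperones and proteases between −0.41 and 0.00 (median −0.21), with 0 called in each. The 7 mitochondrially encoded genes tested had a median of 0.58 and standard errors of 0.24 to 0.37, and 0 were called. The smallest adjusted p in each of these 4 lists belonged to Atp5c1, a subunit of ATP synthase (−0.34 ± 0.11, adjusted p = 0.0508), Hspe1, the mitochondrial co-chaperonin (−0.41 ± 0.15, adjusted p = 0.0818), mt-Cytb of complex III (0.65 ± 0.28, adjusted p = 0.156) and Ndufa12 of complex I (−0.28 ± 0.15, adjusted p = 0.252). NAD synthesis and shuttle genes (0 of 13), creatine and adenylate genes (0 of 15, with Ckb at −0.31 ± 0.17), fatty acid synthesis (0 of 12) and cell cycle genes (0 of 26) also had no call. The ER unfolded protein response had 1 call in 21 (4.76%, Ern1 −0.78), NRF2 targets 2 in 17 (11.8%, Nfe2l2 −0.69 and Srxn1 −0.86), LXR targets 1 in 11 (9.09%, Soat1 −0.42) and the TCA cycle 1 in 16 (6.25%, Pdhb −0.45), beside 7.8% of all tested genes. Srxn1, Soat1 and Pdhb were not called without mouse 4 of each genotype (adjusted p 0.104, 0.113 and 0.185). The proliferation marker Mki67 (−0.65 ± 0.25), the fatty acid synthase Fasn (0.41 ± 0.14), the NAD salvage enzyme Nampt (−0.50 ± 0.25) and the itaconate enzyme Acod1 (−1.14 ± 0.52) were among those that missed the threshold, which does not show equal levels.

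**Figure D4:**
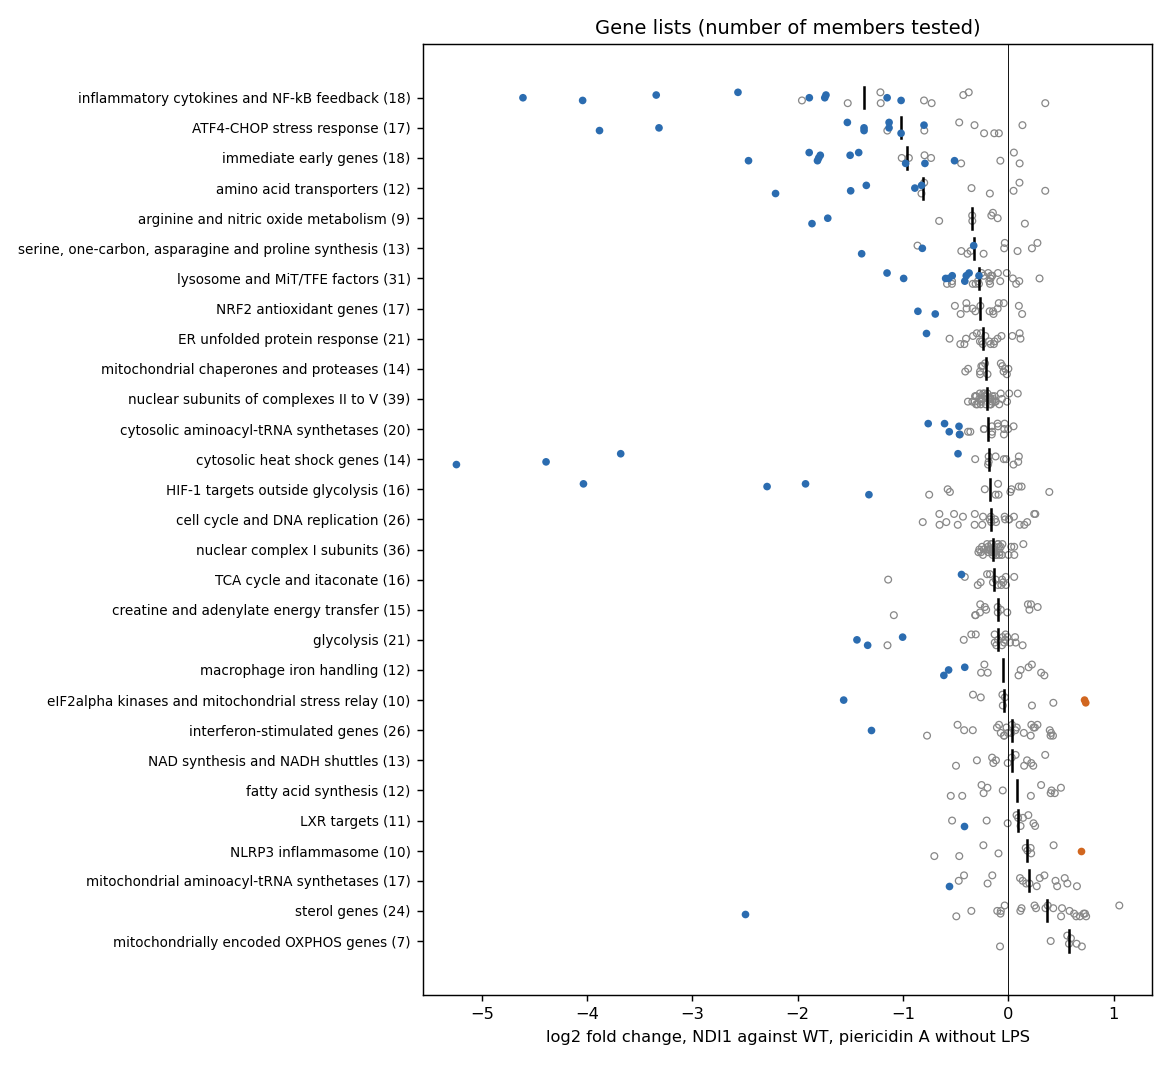
Log2 fold change between NDI1 and WT with piericidin A (x axis) of each tested member of the 29 gene lists (y axis, number tested in brackets). Filled points were called, blue lower and orange higher in NDI1, open points were not, and the bar is the list's median, lowest at −1.37 for the inflammatory genes and −1.02 for the ATF4-CHOP genes.

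Fewer genes were much higher in NDI1. Txnip (chromosome 3, 96557957 to 96561883), an α-arrestin that limits glucose uptake, was at 191, 262, 174, 84.5 and 71.1 CPM in WT and 558, 747, 737, 571 and 511 CPM in NDI1 (2.00 ± 0.34, adjusted p = 1.36e-04). Untreated libraries lay between 599 and 921 CPM, so 3 NDI1 values lay just below this range and the WT values far below it, with mice 4 and 5 the lowest. Sesn1, a stress-regulated inhibitor of mTORC1, had 45.2, 49.2, 23.0, 25.5 and 17.3 CPM in WT and 87.5, 89.7, 150, 136 and 126 CPM in NDI1 (1.88 ± 0.23, adjusted p = 6.68e-07), the reverse of its relative Sesn2. Bmf, a pro-apoptotic BCL-2 family member, was at 13.7, 12.2, 8.56, 3.68 and 3.45 CPM in WT and 20.7, 32.6, 34.2, 43.2 and 27.2 CPM in NDI1 (1.91 ± 0.31, adjusted p = 7.86e-05). Dpysl2, a microtubule-binding protein, spread little among mice, at 21.1 to 31.2 CPM in WT and 49.5 to 57.4 CPM in NDI1 (1.06 ± 0.14). The other rises named by rule were Arhgef37 (2.29 ± 0.56, from 1 to 4 counts per WT library and 6 to 28 per NDI1 library), Gm38158 (1.31), Calhm2 (1.31), Sema4c (1.22), Zfp324 (1.15), Fgd4 (1.14), the peroxisomal transporter gene Abcd2 (1.13) and Spata2l (1.09). Abcd2 was not called without the library of NDI1 mouse 3 (0.85, adjusted p = 0.0578). Fgd4 lost its call without the library of WT mouse 3 and without that of NDI1 mouse 3 (adjusted p up to 0.0858). Calhm2 and Spata2l share exons with genes of 1.08 and 2.23 times their counts. Sema4c, Spata2l and Arhgef37 were not called without mouse 4 of each genotype (adjusted p 0.0688, 0.0601 and 0.051), and Sema4c and Arhgef37 were not called by voom with the mouse as a block (adjusted p 0.0578 and 0.107).

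LPS changed which genes set the genotypes apart. Under LPS and piericidin A, 1421 genes differed between NDI1 and WT (12%), 694 higher (5.86%) and 727 lower (6.13%). Of the 924 genes, 309 were called there too, 33.4% of the 924 and 21.7% of the 1421, and 296 of them in the same direction. The difference between genotypes itself depended on LPS in 231 genes (1.95%, and 1216 or 10.3% with the mouse as a block), 100 of them among the 924. Hspa1a and Hspa1b had a log2 fold change of −0.00 ± 0.33 and 0.45 ± 0.32 under LPS, and Ccl3 and Ccl4 of 0.02 ± 0.39 and −0.49 ± 0.45. The dependence passed the test for all 4 (adjusted p between 5.73e-09 and 2.87e-04). In the 18 inflammatory genes 0 were called under LPS against 9 without, and the dependence itself passed in 5 (27.8%), or in 10 (55.6%) with the mouse as a block. Jun (adjusted p = 1.84e-04) and Sesn1 (adjusted p = 0.0176) also depended on LPS. For Gdf15 (−2.83), Vegfa (−1.45), Bhlhe40 (−1.64), Impact (−1.48), Txnip (1.20) and Dpysl2 (0.89), the genotypes differed under LPS as well, and the dependence did not pass the test with or without the block.

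In 13 genes the calls in the 2 settings had opposite signs. Zfp395, a zinc finger factor, had a log2 fold change of 0.90 without LPS and of −2.28 with it (dependence, adjusted p = 1.98e-05). Its call without LPS was lost with only the libraries compared and under the fold threshold. Abcd2 had 1.13 and −1.09. Pfkfb3 was the reverse case, with −1.003 and 0.97, while the other 10 (Arrb1, Btbd3, Enc1, Engase, Frat2, Kif21b, Paqr7, Paqr8, Pdcd4 and Slc45a4, named after their values were seen) went as Zfp395. Angptl4, a lipase inhibitor, was called without LPS (1.56 ± 0.46, adjusted p = 0.0299, lost under 6 of 18 alternatives, DESeq2 among them), had −1.99 ± 0.84 with it and a dependence of 3.55 (adjusted p = 0.0398). Arl4c and Abhd15, named for their dependence on LPS, were not called under piericidin A alone (−0.84 and 0.84), and Abhd15 shares exons with a gene of 44.7 times its counts. Sterol genes, with 1 lower call of 24 here, had 8 higher calls and 1 lower call with LPS, and the dependence on LPS passed the test in 1 gene of the list, or in 6 (25%) with the mouse as a block, Insig1 among them (adjusted p = 0.031).

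**Figure D5:**
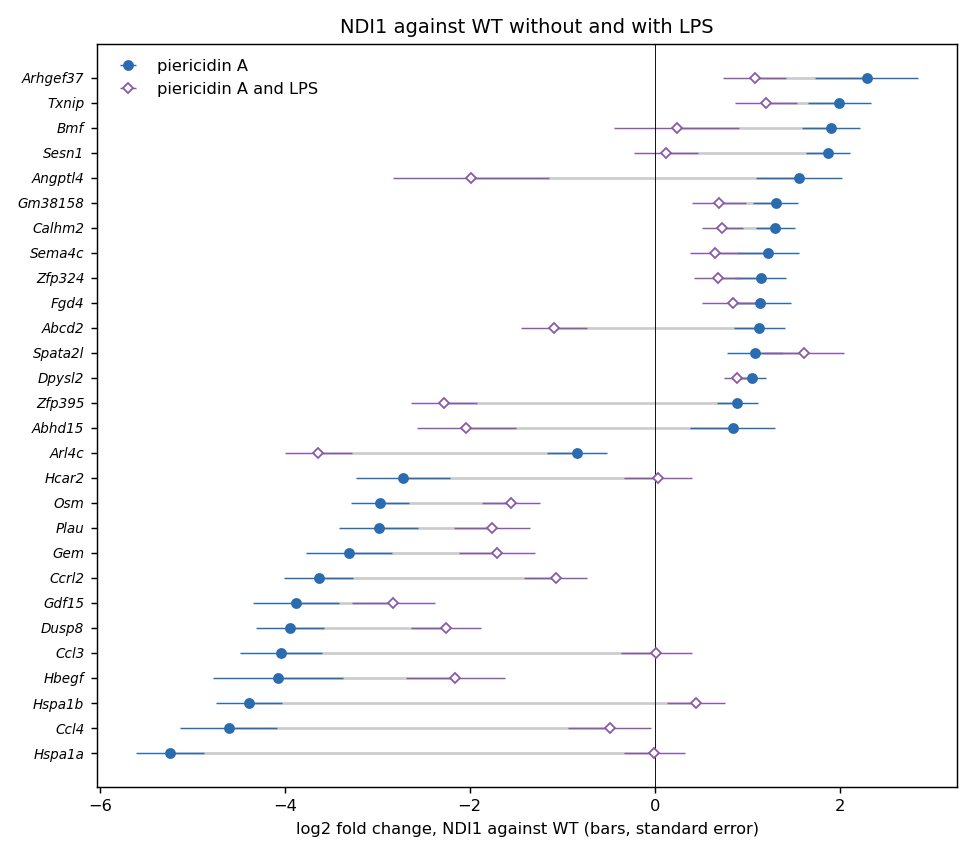
Log2 fold change between NDI1 and WT with piericidin A alone (circles) and with piericidin A and LPS (diamonds), x axis, for the 28 genes named by size of difference or by LPS dependence, y axis. Bars are standard errors, and the heat shock and Ccl3 and Ccl4 diamonds lie near 0 while their circles lie between −5.24 and −4.04.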

How the data were processed

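RNA-seq of BMDMs from 5 WT and 5 NDI1 mice, each untreated, with LPS, with piericidin A and with both (40 libraries), was analysed. The authors deposited raw counts of reads per gene, made with bcl2fastq, Trimmomatic, STAR and HTSeq on mm10 per the labels and methods, while the annotation release and strand setting are not given in the sources used here. The 1 column of reads assigned to no sample was not used. Gene positions are those of the deposited table.

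Genes were filtered with filterByExpr over 8 groups, scaled by TMM and tested with edgeR 4.0.16 (R 4.3.3) in a quasi-likelihood fit of all 40 libraries, with adjustment over 11853 genes. CPM values use TMM-scaled library sizes, log2 values a prior count of 2, and the standard error is the absolute log2 fold change over the root of F. DESeq2 1.42.0, limma 3.58.1 and the other alternatives are given at the end. The p-values of the main fit rest on a spread estimated over all 40 libraries, those with LPS included. That fit treats the 4 libraries of a mouse as independent. The fits with the mouse as a fixed block use the spread within mice. Code was tested on simulated data before use. Libraries of the same mouse share its number in the labels, and their deviations from group means correlated (mean r 0.453 over 60 pairs, −0.107 over 240 pairs of different mice), so values with the mouse as a block are given beside counts that it moved and named genes whose call it changed. A fixed block cannot be fitted between mice, so voom with the mouse as a random block serves for NDI1 against WT, and edgeR with a fixed block for differences of treatment effects.

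Named by rule were the 12 largest called and non-overlapping rises and falls (mean log2 CPM of at least 1), the 4 members with the smallest adjusted p in each of 29 lists (printed for the lists described), the 4 genes with the largest dependence on LPS in each direction, and Nlrp3, Il1b, Casp1, Tnf, Il10 and Ckb. Some genes are not reported here. Other list members were named after their values were seen. The comparison, the lists and the rule were chosen with earlier results of these data known.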

Additional observations from a re-analysis of the deposited data

Results flagged for a closer look

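In 5 of 110 groups of 5 libraries, 1 library lay far from the other 4 by Dixon's criterion, which chance alone gives in about 1 group in 20. WT mouse 4 had 18.1 CPM of Il1b against 5.88 to 8.94 CPM in the other WT libraries with piericidin A, and it was also the library with the highest summed neutrophil markers. WT mouse 5 had 36.9 CPM of Chac1 against 6.13 to 13.1 CPM. Among the NDI1 libraries with piericidin A, mouse 2 had 77.2 CPM of Vegfa against 37.3 to 41.9 CPM, mouse 3 had 42.4 CPM of Abcd2 against 19.2 to 22.1 CPM, and mouse 4 had 104 CPM of Pfkfb3 against 39.1 to 55.1 CPM. Without the library that stood apart, the difference between genotypes was −2.67 for Chac1 (adjusted p = 0.0439), −2.17 for Vegfa (adjusted p = 7.36e-08) and −1.33 for Pfkfb3 (adjusted p = 0.00782), which were still called. Abcd2 was no longer called (0.85, adjusted p = 0.0578), and Il1b was called neither with nor without WT mouse 4 (−0.45, adjusted p = 0.584).

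Results that differed between groups by their own test were the 150 genes whose response to piericidin A depended on genotype and the 231 genes whose genotype difference depended on LPS. Of the 231, 62 were lower in NDI1 under piericidin A alone and not called with LPS, 20 were higher and not called with LPS, and 119 were called only with LPS. The causes of these differences were not tested.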

How the results depend on the processing

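The 924 calls became 266 (60 higher, 206 lower) with a fold threshold of 1 log2 unit, 950 with RLE factors, 657 (260 higher) without the filter on low counts, 477 (160 higher, 317 lower) with only the libraries compared, 1149 with the 20 libraries without LPS, 1245 (633 higher) with DESeq2 and 1206 with voom and the mouse as a block. Of the 924, 453 were called with only the libraries compared and 921 with DESeq2. The 150 genes with a genotype-dependent response became 294 with DESeq2, 1038 with voom and 1062 with edgeR when the mouse was a replicate block, and the 231 LPS-dependent genes became 88 with only the libraries compared, 372 with DESeq2, 912 with voom and 1216 with edgeR with the same block. Without mouse 4 of each genotype, an alternative added after seeing the data, the counts were 458 (134 higher, 324 lower), 73 and 79. The 1759 genes called for piericidin A within WT became 4049 with the mouse as a replicate block and 909 without mouse 4 of each genotype, and within NDI1 0 were called in each of these fits. Leaving out 1 piericidin A library gave 562 to 1169 calls, 194 to 584 higher and 368 to 585 lower. Leaving out 1 mouse with its 4 libraries gave 63 to 200 genotype-dependent and 86 to 263 LPS-dependent genes. Without the piericidin A library of WT mouse 4 or 5, the calls fell to 595 and 562 and the higher genes to 209 and 194. Without that of NDI1 mouse 2, 3 or 4, the higher genes fell to 242, 259 and 250. With a whole mouse left out, the genotype-dependent genes were 72, 79 and 63 without WT mouse 1, 4 or 5. They were 84, 82, 86 and 83 without NDI1 mouse 2, 3, 4 or 5. The LPS-dependent genes were 109 and 86 without WT mouse 4 or 5 and 115, 88 and 134 without NDI1 mouse 2, 3 or 4. Fewer libraries or a smaller set of libraries enter these fits, and other causes were not tested. Without treatment 0 genes were called under each of these settings except edgeR with the block, which cannot compare different mice and was not run there. The share of variance between genotypes lay between 20.8% and 28.9%. Of 99 named or listed called genes, 49 kept their call and 50 lost it under at least 1 alternative, and 0 changed direction. The alternatives counted for each gene include the fold threshold, which a fold under 1 log2 unit cannot pass. Of 231 pairs of gene and alternative that lost the call, 35 lost it only through that threshold. Counts under about 3 per library, as for Adm and Hspb1 in NDI1, set the limit of depth, and their fitted folds depend on the prior count.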

Other observations

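Further families were looked at after values had been seen, so their counts are descriptions without a test, to be read beside the 3.48% of genes called higher and 4.31% called lower in the comparison under piericidin A alone. Of 15 circadian clock genes, 6 were lower in NDI1 and 0 higher. They were the repressors Per1 (log2 fold change −1.59), Cry1 (−1.09), Nr1d1 (−2.01), Bhlhe40 (−2.29), Bhlhe41 (−1.80) and Ciart (−2.50), while the repressors Per2 (−0.33), Per3 (0.35), Cry2 (0.05) and Nr1d2 (−0.44) and the activators Arntl (0.57) and Clock (−0.35) did not pass the test. All 3 Gadd45 stress genes were lower, Gadd45a by the most (−2.48), as were the kinase genes Pim1 (−2.29) and Pim3 (−1.86) and not Pim2 (0.07). Of 8 MAP kinase phosphatases, 6 were lower, with Dusp10 (−2.12) and Dusp16 (−0.88) beside those already described, and Dusp6 had 0.11. Among 13 BCL-2 family genes the anti-apoptotic Bcl2l1 was lower (−1.86) and the pro-apoptotic Bmf (1.91) and Bcl2l11 (0.47) were higher.

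Families with rises were fewer. All 5 tested α-arrestin genes were higher in NDI1, with Arrdc1 (0.40), Arrdc2 (0.72), Arrdc3 (0.70) and Arrdc4 (0.62) beside Txnip. Of 310 tested genes with a Zfp symbol, many of them zinc finger transcription factors, 32 were higher (10.3%) and 8 lower (2.58%), and of 40 Trim genes 8 were higher (20%) and 0 lower. Of 17 vacuolar ATPase genes 7 were lower (41.2%) and 0 higher. Atp6v0d1 lost its call under 8 of 19 alternatives and Atp6v1h under 10 of 19. Neither was called without mouse 4 of each genotype (edgeR adjusted p 0.192 and 0.275), while Atp6v1a lost its call only under the fold threshold. Mitochondrial ribosomal protein genes had 0 calls in 76, cytosolic ribosomal protein genes 1 in 82, and the 5 MHC class II genes 0.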
